A study of Mus musculus with 9 samples.

Results

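Ketone bodies reach the brain in the blood during fasting and enter cells through monocarboxylate transporters. Bdh1 turns beta-hydroxybutyrate into acetoacetate, Oxct1 activates acetoacetate with coenzyme A and Acat1 splits the product into acetyl-CoA. Fatty acids are activated by acyl-CoA synthetases, carried into mitochondria as carnitine esters and shortened by rounds of beta-oxidation, whose electrons pass through the electron transfer flavoprotein to the respiratory chain. Brain tissue is known for ready use of ketone bodies and for little fatty acid oxidation, most of which takes place in astrocytes. The 34 genes described here cover these steps, together with acyl-CoA thioesterases, mitochondrial uncoupling proteins and the nuclear receptors Ppara and Ppard. They are given by gene symbol, and the choice rule uses no measured value, but earlier results of these data were known at the choice. All 34 were found among the 20591 genes of the count table, and all 34 passed the filter on low counts.

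RNA was measured in substantia nigra lysate of C57BL/6 mice allocated to diets at 12 weeks of age. All groups, controls included, have the genotype label Sham, and the labels do not describe what the sham treatment was. The ad libitum group had free access to food for 1 week, with the same daily cage changes, the 1 day group had 1 fast of 24 h, and the 1 week group had 3 such fasts. Fasts began 2 hours before lights off, and the sources used here do not give the time from the end of the last fast to tissue collection. Each group had 3 libraries. The labels do not tie each library to an animal of its own, so p-values reflect only how far libraries of a group differ, which may be in part technical.

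Library totals were between 36109995 and 54248856 counts. The defining markers of dopaminergic neurons, Th and Slc6a3, were present in every library, at 76.1 to 296.0 and 184.0 to 525.8 CPM (counts scaled to library size by TMM, on the CPM scale). Defining markers of other cells were above 0 in every library too. Ttr, a choroid plexus marker, reached 334.6 CPM in ad libitum replicate 3 against 2.6 to 35.5 elsewhere, and Slc17a7, a marker of cortical excitatory neurons, reached 501.2 CPM in 1 week replicate 3 against 4.3 to 49.2. A pair of libraries stood apart from their groups, with quality weights in limma of 0.21 for 1 day replicate 2 and 0.51 for 1 week replicate 2 against 0.97 to 1.93 for the other 7. Leaving them out moved some log2 fold changes of the 34 genes against ad libitum by over 0.1. For these the value without both is given, beside the gene or with those of 1 day replicate 2. Of the other genes named below, such values were checked only for Pdk4 and Klf15.

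None of the 34 genes passed the test in any comparison (edgeR's quasi-likelihood F test, adjusted p under 0.05 over all 20535 genes tested). The share of all genes called was 0.0584% for 1 day against ad libitum, 0.307% for 1 week against ad libitum and 0% for 1 week against 1 day. That 0 stands beside 1071 genes at an unadjusted p under 0.05, 5.22% of those tested, 3 genes called by DESeq2 and 0 called by limma voom. The smallest adjusted p among the 34 genes was 0.325 for Slc22a5 after 1 day, 0.226 for Acaa1a after 1 week and 0.853 for 1 week against 1 day. The 95% interval of the log2 fold change lay within 2-fold either way for 32 of 34 genes after 1 day, the exceptions being Cpt2 and Acot2. After 1 week it lay within 2-fold for 34 of 34. The same held for 73.5% and 73.1% of all genes.

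**Figure D1:**
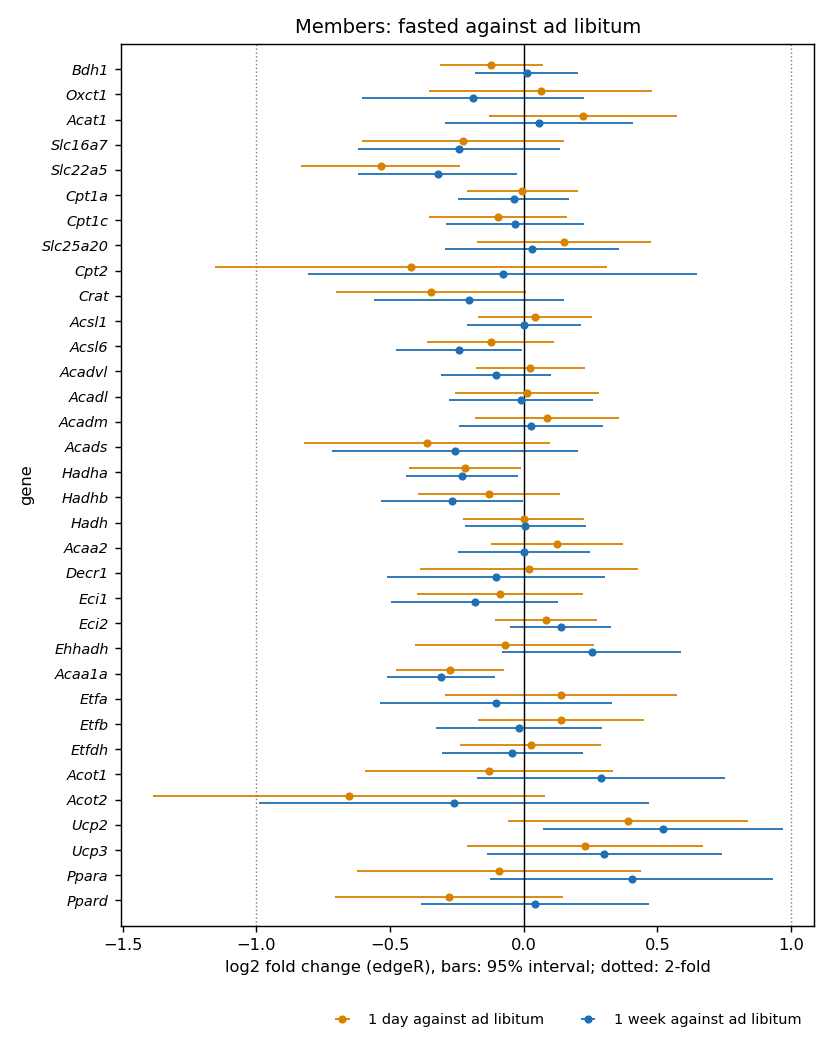
Log2 fold change of the 34 genes after 1 day (orange) and after 1 week (blue) against ad libitum, from edgeR, with 95% intervals as bars and 2-fold changes as dotted lines. Most intervals cross 0, and the intervals of Cpt2 and Acot2 after 1 day reach past the dotted line. Both comparisons share the ad libitum libraries.

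Below that threshold, 3 of the 34 genes had an unadjusted p under 0.05 after 1 day, against 9.27% of all genes, and all 3 lay lower (Slc22a5, Hadha and Acaa1a), as 4.9% of all genes did, while 4.37% lay higher. After 1 week 6 of 34 did, against 11.2% of all genes. Slc22a5, Acsl6, Hadha, Hadhb and Acaa1a lay lower, against 4.9% of all genes, and Ucp2 higher, against 6.33%. Groups did not overlap for 10 of 34 genes after 1 day, 3 higher and 7 lower, against 18.5% of all genes, 8.17% higher and 10.3% lower. After 1 week they did not overlap for 11 of 34, 3 higher and 8 lower, against 22.4% of all genes, 10.9% higher and 11.5% lower. The median log2 fold change of the 34 genes was -0.038 after 1 day and -0.035 after 1 week, where that of all genes was 0.00041 and -0.0013. It was below 0 for 19 and for 20 of the 34 genes.

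**Figure D2:**
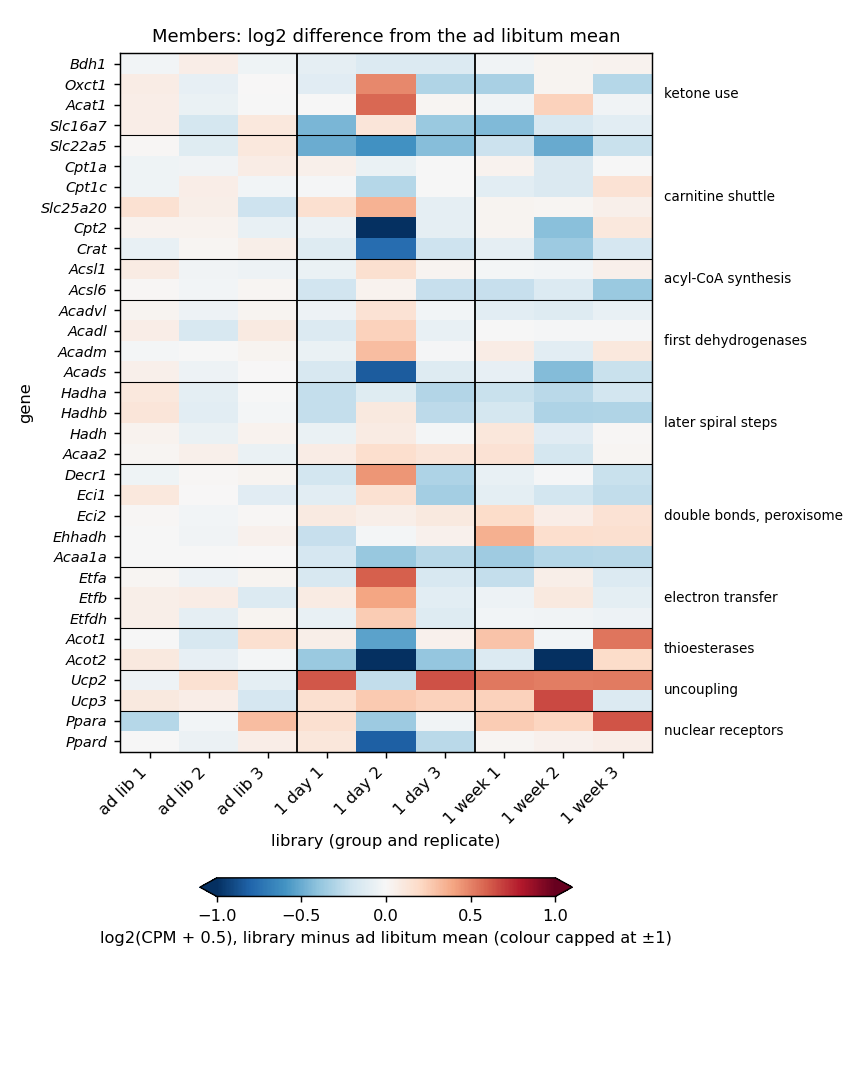
Log2 difference of each library from the ad libitum mean, on the log2(CPM + 0.5) scale, for the 34 genes (rows, grouped by role) and the 9 libraries (columns), with the colour capped at 1 in either direction. Slc22a5 and Acaa1a are blue in all 6 fasted libraries, and the column of 1 day replicate 2 holds many of the strongest colours.

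The sequences upstream of 4 of the genes whose values are described most closely are shown first, as RefSeq gives them for GRCm38.p6, and 29 of the 34 genes matched that table. Each is the run of 250 bases before the annotated start, 5′ to 3′ on the gene's strand. Capitals mark CCAAT boxes (CCAAT or its reverse complement) in Acaa1a and a match to the NRF1 site (GCGCA, any base, GCGC) in Slc22a5. Hadha and Hadhb, which encode the subunits of the mitochondrial trifunctional protein, are transcribed away from each other. Their starts are 273 bases apart on chromosome 5 and their windows share 228 bases, so the window of Hadhb alone is printed. The positions are chr5:30155003-30155252 on the plus strand for Hadhb, chr11:53891704-53891953 on the minus strand for Slc22a5, chr9:119341044-119341293 on the plus strand for Acaa1a and chr7:100493108-100493357 on the plus strand for Ucp2.
Hadhb: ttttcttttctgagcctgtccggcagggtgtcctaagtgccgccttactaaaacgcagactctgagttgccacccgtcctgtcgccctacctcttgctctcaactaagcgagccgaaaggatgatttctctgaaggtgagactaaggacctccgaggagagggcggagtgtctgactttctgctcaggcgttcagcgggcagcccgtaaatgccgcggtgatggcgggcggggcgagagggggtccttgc
Slc22a5: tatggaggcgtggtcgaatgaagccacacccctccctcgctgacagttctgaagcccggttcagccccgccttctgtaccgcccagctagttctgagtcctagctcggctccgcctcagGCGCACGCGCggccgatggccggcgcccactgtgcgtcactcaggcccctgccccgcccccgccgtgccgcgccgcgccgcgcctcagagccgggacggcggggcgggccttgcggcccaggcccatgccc
Acaa1a: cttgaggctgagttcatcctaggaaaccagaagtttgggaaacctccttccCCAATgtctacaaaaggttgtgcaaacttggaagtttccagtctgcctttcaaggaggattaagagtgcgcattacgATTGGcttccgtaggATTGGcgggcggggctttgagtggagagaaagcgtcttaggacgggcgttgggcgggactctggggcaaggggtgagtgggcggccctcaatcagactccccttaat
Ucp2: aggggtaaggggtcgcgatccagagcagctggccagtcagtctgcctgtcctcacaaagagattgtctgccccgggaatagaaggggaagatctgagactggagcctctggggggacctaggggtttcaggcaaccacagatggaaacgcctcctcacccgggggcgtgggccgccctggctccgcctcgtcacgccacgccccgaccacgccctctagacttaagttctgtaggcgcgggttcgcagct

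Exact motif matches were counted on both strands in the windows of the 29 genes, of which there are 33 because some genes have several starts. The NRF1 site was in 4 of 33 windows (Etfb, Etfdh, Ppara and Slc22a5) and in 3.74% of all 32851 promoter windows of that length. A CCAAT box was in 15 of 33 and in 33.8% of all windows. The DR1 element, the form of site bound by PPAR receptors (AGGTCA, any base, AGGTCA), was in 0 of 33 and in 0.0335% of all windows. The glucocorticoid response element (GNACA, 3 bases of any kind, TGTNC) was in 0 of 33 and in 0.387% of all windows, and the extended nuclear receptor site (TCA then AGGTCA) was in 1 of 33 (Acsl6) and likewise in 0.387%. A match describes these letters in this window and is not a measurement of binding.

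Between genes, levels were compared as CPM per kb of the longest protein-coding transcript. The order depends on these lengths, and counts per gene do not tell which transcripts were expressed. In ad libitum libraries Oxct1 was highest, at 61.3 ± 3.22 CPM per kb (SD, n = 3), followed by Acsl6 at 52.6 ± 0.91, Hadhb at 43.6 ± 3.52 and Acaa1a at 33.2 ± 0.10, and the libraries of neighbours in that order did not overlap. The 6 genes from Acadvl, at 20.4 CPM per kb, down to Etfa, at 18.7, overlapped their neighbours in the order. So did the 7 from Acsl1, at 12.5 CPM per kb, down to Ucp2, at 11.4. The lowest were Slc16a7 at 2.14 ± 0.22, Ehhadh at 1.53 ± 0.05 and Ppara at 0.98 ± 0.24 CPM per kb. Oxct1, Acsl6 and Hadhb headed the order in every group, and Ppara was last in every group. Acads was the lowest of the 4 chain-length-specific acyl-CoA dehydrogenases, at 3.96 ± 0.14 CPM per kb against 12.1 ± 0.19 for Acadm, 18.8 ± 1.78 for Acadl and 20.4 ± 0.66 for Acadvl.

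**Figure D3:**
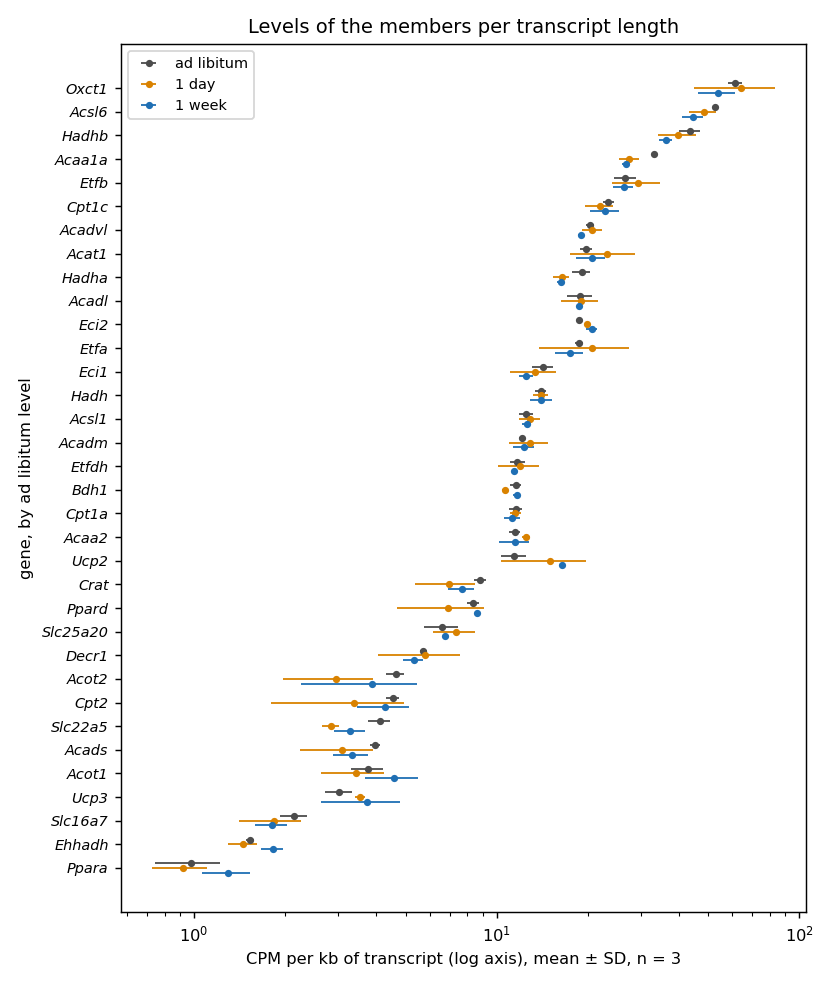
Level of each gene in CPM per kb of transcript (log axis), with mean ± SD of 3 libraries for ad libitum (grey), 1 day (orange) and 1 week (blue), ordered by the ad libitum mean. Levels run from 0.98 for Ppara to 61.3 for Oxct1 in the ad libitum group, and the bars of the 3 groups overlap for most genes.

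Of the ketone-use genes, none passed the test. Bdh1, the dehydrogenase of beta-hydroxybutyrate, had 35.5, 37.9 and 35.0 CPM in ad libitum libraries, 33.9, 32.8 and 32.8 after 1 day and 35.2, 36.8 and 37.0 after 1 week. The 1 day libraries were all just below the ad libitum ones, and the 1 week libraries lay among them. Its log2 fold change was -0.12 (SE 0.087, edgeR adjusted p = 0.617) after 1 day and 0.010 (SE 0.087, adjusted p = 0.979) after 1 week, with an interval of -0.18 to 0.20 for the latter.

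Oxct1, whose enzyme commits acetoacetate to oxidation, had 227.1, 204.4 and 217.2 CPM in ad libitum libraries, 199.7, 302.3 and 175.8 after 1 day and 172.0, 219.8 and 177.1 after 1 week. Replicate 2 was the highest of its group in both fasted groups, and the other fasted libraries lay below every ad libitum library. The log2 fold change was 0.063 (SE 0.19, adjusted p = 0.910) after 1 day and -0.19 (SE 0.19, adjusted p = 0.769) after 1 week. Without both libraries that stood apart the value after 1 day was -0.20 (adjusted p = 0.464), so its direction turned.

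Acat1, the mitochondrial thiolase that yields acetyl-CoA, had 70.5, 64.3 and 67.1 CPM in ad libitum libraries, 67.1, 100.4 and 68.1 after 1 day and 65.5, 79.1 and 65.6 after 1 week. Again replicate 2 was highest in both fasted groups, while the other 4 fasted libraries lay within the ad libitum range. Its log2 fold change after 1 day was 0.22 with all libraries and 0.00815 without the 2 that stood apart. Slc16a7, the monocarboxylate transporter MCT2 found mainly on neurons, had 24.6, 20.7 and 25.2 CPM in ad libitum libraries, 16.9, 25.4 and 17.98 after 1 day and 17.1, 20.9 and 21.7 after 1 week. Its log2 fold change was -0.23 (SE 0.17, adjusted p = 0.637) after 1 day and -0.24 (SE 0.17, adjusted p = 0.657) after 1 week, and groups overlapped in both. The 1 day value was -0.43 (adjusted p = 0.330) without the libraries that stood apart.

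Among the genes of carnitine transport, Slc22a5 lay lower in every fasted library. It encodes OCTN2, the transporter that brings carnitine into cells. It had 12.6, 11.5 and 13.6 CPM in ad libitum libraries, 8.7, 8.1 and 9.2 after 1 day and 10.8, 8.7 and 10.7 after 1 week. The highest fasted library was below the lowest ad libitum library. Its level after 1 day was 0.69 times that of ad libitum (log2 fold change -0.53, SE 0.13, unadjusted p = 0.00248, adjusted p = 0.325). After 1 week it was 0.80 times (-0.32, SE 0.13, adjusted p = 0.404). With DESeq2 the 1 day value was -0.52 and passed at an adjusted p of 0.0341, where 0.896% of all genes were called. In simulated data for this comparison DESeq2 called 38 unchanged genes and edgeR 7. Over the 17 alternatives for 1 day the log2 fold change ranged from -0.59 to -0.47 and the adjusted p from 0.0341 to 0.828.

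The remaining carnitine genes did not pass either. Cpt1a, the outer membrane carnitine palmitoyltransferase that sets the rate of fatty acid entry in many tissues, had 48.5, 48.6 and 52.7 CPM in ad libitum libraries, 51.8, 47.6 and 49.9 after 1 day and 51.0, 45.2 and 49.7 after 1 week. Its 95% interval was -0.21 to 0.20 after 1 day and -0.24 to 0.17 after 1 week on the log2 scale. Cpt2, the inner membrane partner, had 11.0, 11.0 and 10.2 CPM in ad libitum libraries, 10.3, 3.7 and 10.03 after 1 day and 11.0, 7.9 and 11.6 after 1 week. The low values were those of replicate 2, and its log2 fold change after 1 day went from -0.42 (adjusted p = 0.645) to -0.077 (adjusted p = 0.830) without the libraries that stood apart. Cpt1c, a neuronal form that stays in the endoplasmic reticulum, had log2 fold changes of -0.095 and -0.032. Slc25a20, the carnitine-acylcarnitine carrier, had 0.15 and 0.030. Crat, which forms acetylcarnitine, had -0.35 (adjusted p = 0.542) and -0.21 (adjusted p = 0.689), and its groups did not overlap in either comparison. It had 33.95, 21.8 and 32.2 CPM after 1 day, and its values were -0.17 and -0.12 without the libraries that stood apart.

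Of the acyl-CoA synthetases, Acsl1 had log2 fold changes of 0.041 and 0.00042. Acsl6, the form that handles long polyunsaturated fatty acids in brain, had 307.4, 299.3 and 309.2 CPM in ad libitum libraries, 267.5, 313.4 and 259.4 after 1 day and 260.2, 277.5 and 236.0 after 1 week. All 1 week libraries lay below the ad libitum ones, while 1 day replicate 2 lay above them. The log2 fold change was -0.12 (SE 0.11, adjusted p = 0.674) after 1 day and -0.24 (SE 0.11, unadjusted p = 0.0446, adjusted p = 0.429) after 1 week.

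The first dehydrogenases of the spiral showed no change past the test. Acadm, specific for medium chains, had 24.4, 24.6 and 25.2 CPM in ad libitum libraries, 23.6, 30.7 and 24.5 after 1 day and 26.1, 22.9 and 26.6 after 1 week, with groups overlapping. Its log2 fold change was 0.087 (SE 0.12) after 1 day and 0.027 (SE 0.12) after 1 week. Acadvl and Acadl, for very long and long chains, had values between -0.10 and 0.025 in both comparisons. Acads, for short chains, had -0.36 (adjusted p = 0.571) and -0.26 (adjusted p = 0.700), and every fasted library was below every ad libitum one. Replicate 2 was the lowest of both fasted groups, and without those libraries both values were -0.15.

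The trifunctional protein subunits, which carry out the later steps for long chains, lay lower. Hadha, the alpha subunit, had 82.1, 71.4 and 76.2 CPM in ad libitum libraries, 64.6, 70.3 and 62.5 after 1 day and 65.5, 63.3 and 67.1 after 1 week. No fasted library reached the lowest ad libitum library. The log2 fold change was -0.22 (SE 0.094, unadjusted p = 0.0417, adjusted p = 0.532) after 1 day and -0.23 (SE 0.094, unadjusted p = 0.0341, adjusted p = 0.398) after 1 week. Hadhb, the beta subunit whose start lies beside that of Hadha, had 97.0, 82.7 and 88.0 CPM in ad libitum libraries, 75.2, 95.1 and 74.1 after 1 day and 78.6, 71.7 and 72.1 after 1 week. Only 1 day replicate 2 reached into the ad libitum range. The log2 fold change was -0.13 (SE 0.12, adjusted p = 0.691) after 1 day and -0.27 (SE 0.12, unadjusted p = 0.0482, adjusted p = 0.440) after 1 week. The ratio of Hadhb to Hadha per kb was 2.28 ± 0.03 in ad libitum libraries, 2.42 ± 0.20 after 1 day and 2.23 ± 0.12 after 1 week (SD, n = 3). The size of this ratio depends on the lengths used, 2048 bases for Hadhb and 4017 for Hadha. Hadh and Acaa2, the dehydrogenase and thiolase for shorter chains, had log2 fold changes of -0.00075 and 0.0062 for Hadh and 0.12 and 0.0013 for Acaa2.

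Among the genes for double bonds and peroxisomal oxidation, Acaa1a lay lower. It encodes a peroxisomal thiolase that ends a round of oxidation in that organelle. It had 58.4, 58.3 and 58.6 CPM in ad libitum libraries, 52.1, 44.8 and 48.0 after 1 day and 45.5, 47.9 and 48.1 after 1 week. The ad libitum libraries were within 1 CPM of each other and all 6 fasted libraries were lower. The level was 0.83 times that of ad libitum after 1 day (log2 fold change -0.27, SE 0.091, unadjusted p = 0.0127, adjusted p = 0.466) and 0.81 times after 1 week (-0.31, SE 0.091, unadjusted p = 0.00651, adjusted p = 0.226). With DESeq2 the 1 week value was -0.30 and passed at an adjusted p of 0.0498, where 2.26% of all genes were called. For 1 week against ad libitum DESeq2 called 50 unchanged genes in simulated data and edgeR 13. Over the 17 alternatives for 1 week it ranged from -0.32 to -0.28, with adjusted p from 0.0498 to 0.575. Acaa1a has a close paralog, Acaa1b, and the reads of near-identical transcripts can be split between them.

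Ehhadh, the peroxisomal bifunctional enzyme, went the other way after 1 week, at 0.25 (SE 0.15, adjusted p = 0.587), with 1 week libraries above all ad libitum ones. Eci2, an enoyl-CoA isomerase, had 0.084 and 0.14, and the groups did not overlap in either comparison. Decr1 and Eci1, which process double bonds in mitochondria, had 0.020 and -0.089 after 1 day and -0.11 and -0.18 after 1 week. Etfa, Etfb and Etfdh, which pass electrons from the dehydrogenases to ubiquinone, had 0.14, 0.14 and 0.026 after 1 day and -0.10, -0.018 and -0.043 after 1 week. The 1 day values of Decr1, Etfa, Etfb and Etfdh turned to -0.25, -0.16, -0.00934 and -0.10 without both libraries that stood apart.

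Of the thioesterases, which release free fatty acids from coenzyme A, Acot1 had log2 fold changes of -0.13 and 0.29 and Acot2 of -0.65 (SE 0.33, adjusted p = 0.549) and -0.26 (SE 0.33, adjusted p = 0.819). Acot2 had 7.7, 4.0 and 7.6 CPM after 1 day and 9.2, 4.6 and 11.6 after 1 week, with replicate 2 lowest in both. Without the libraries that stood apart its values were -0.40 and 0.041, and those of Acot1 were 0.050 and 0.44. Acot1 and Acot2 are close paralogs in the same gene cluster, so the division of reads between them is uncertain.

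The uncoupling protein Ucp2, an inner membrane carrier known to be induced by fatty acids in several tissues, was the gene furthest above ad libitum. It had 43.8, 50.5 and 42.5 CPM in ad libitum libraries, 70.2, 38.2 and 70.9 after 1 day and 65.6, 64.9 and 65.5 after 1 week. The 1 week libraries were within 1 CPM of each other and above every ad libitum library, while 1 day replicate 2 was below them all. The level after 1 week was 1.43 times that of ad libitum (log2 fold change 0.52, SE 0.20, unadjusted p = 0.0274, adjusted p = 0.373). After 1 day it was 1.31 times (0.39, SE 0.20, adjusted p = 0.553). Leaving out both libraries that stood apart, the 1 day value was 0.63 and passed at an adjusted p of 0.0386, where 0.243% of all genes were called, and the 1 week value was 0.54 with an adjusted p of 0.0600. Without 1 day replicate 2 alone the 1 day value was 0.63 with an adjusted p of 0.0530, and the 1 week value was 0.53 and passed at 0.0318, where 0.588% of all genes were called. In a fit of the 6 libraries of the comparison alone the 1 week value of 0.53 passed at an adjusted p of 0.0475, where 0.762% of all genes were called. Over the 17 alternatives the adjusted p ranged from 0.0386 to 0.828 after 1 day and from 0.0318 to 0.775 after 1 week. Ucp3, its paralog best known from muscle, had 0.23 (SE 0.20, adjusted p = 0.676) and 0.30 (SE 0.20, adjusted p = 0.632), and the latter was 0.072 without the libraries that stood apart.

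**Figure D4:**
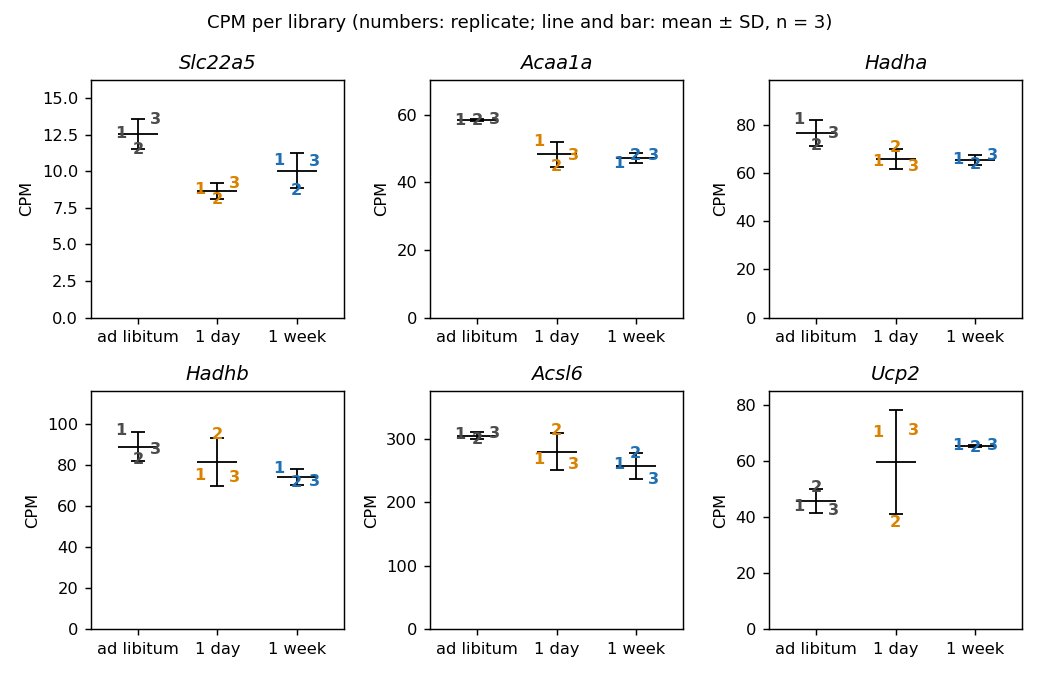
CPM per library of the 6 genes with an unadjusted p under 0.05 in at least 1 comparison, with replicate numbers as points, lines for means and bars for SD (n = 3). Slc22a5, Acaa1a and Hadha are lower in all fasted libraries, and Ucp2 is near 65 CPM in all 1 week libraries while 1 day replicate 2 is at 38.2.

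In these bulk samples fewer cells of a type and less RNA per cell cannot be told apart. All 12 listed astrocyte markers were measured. Their sum was 7376 to 7700 CPM in ad libitum libraries, 8116 to 9962 after 1 day and 8537 to 9142 after 1 week, so it was higher in every fasted library. The markers did not move as one, since 5 of 12 had a log2 fold change below 0 after 1 day and 4 of 12 after 1 week, among them Aqp4 at -0.52 and -0.37. Glul, the largest part of the difference, had a mean of 2025 CPM in ad libitum libraries, 3055 after 1 day and 2903 after 1 week. Without Glul, singled out after its values were seen, the sum was 5507.5 to 5656.4 CPM in ad libitum libraries, 5560.9 to 6139.6 after 1 day and 5763.7 to 6151.1 after 1 week. The 12 microglia markers summed to 378 to 415 CPM in ad libitum libraries, 279 to 322 after 1 day and 256 to 385 after 1 week. The 12 oligodendrocyte markers summed to 12114 to 14801 CPM in ad libitum libraries, 10092 to 12091 after 1 day and 10667 to 12232 after 1 week. None of these cell types had a defining marker at 0, since Aqp4, Cx3cr1 and Mbp did not fall below 139.6 CPM, 15.4 CPM and 4385.5 CPM in any library. The part of these marker levels in the values of Slc22a5, Acaa1a, Hadha and Ucp2 was not tested.

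Ppara, the nuclear receptor that drives fatty acid oxidation in liver, had 2.6, 3.2 and 4.2 CPM in ad libitum libraries, 3.7, 2.5 and 3.2 after 1 day and 4.0, 3.9 and 5.4 after 1 week. The groups overlapped in both comparisons against ad libitum, at log2 fold changes of -0.093 (SE 0.24, adjusted p = 0.894) and 0.40 (SE 0.24, adjusted p = 0.587). Ppard, the form expressed widely in brain, had -0.28 (adjusted p = 0.606) and 0.041 (adjusted p = 0.958), with 29.7, 15.4 and 22.6 CPM after 1 day against 26.3 to 28.6 in ad libitum libraries. Replicate 2 was the low one, and the 1 day value was -0.067 (adjusted p = 0.886) without the libraries that stood apart.

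Between 1 week and 1 day, the largest log2 fold changes were 0.50 for Ppara (SE 0.24, unadjusted p = 0.0626, adjusted p = 0.853), 0.42 for Acot1 (SE 0.21), 0.39 for Acot2 and 0.34 for Cpt2. Without 1 day replicate 2 the last 2 were 0.15 and 0.0069, and over the 17 alternatives Acot2 ranged from 0.11 to 0.69. The groups did not overlap for 4 of 34 genes, against 7.79% of all genes, 4.5% higher and 3.28% lower. Bdh1, Ehhadh and Ppara were higher after 1 week and Acadvl was lower. The 95% interval lay within 2-fold for 31 of 34 genes, against 76.4% of all genes.

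In 1 day replicate 2, 20 of the 34 genes lay more than 0.2 from their group mean on the log2 scale, 12 above it and 8 below it. The other 1 day libraries had 11 such genes each, 1 week replicate 2 had 7, and the remaining libraries had 0 to 5. The group mean includes replicate 2, so deviations in 1 day replicates 1 and 3 in part mirror those in replicate 2 (correlations of -0.943 and -0.938). The share of all genes beyond 0.2 was not computed. The genes furthest above were Etfa, Decr1 and Oxct1, and those furthest below were Cpt2, Acot2 and Ucp2. The 12 genes above had a median transcript GC content of 46.3% and the 8 below had 53.9%. Across the 34 genes the correlation of the deviation with GC content was -0.63, described without a test since the genes share 1 library. It was 0.69 in 1 day replicate 1, 0.48 in 1 day replicate 3, 0.45 in ad libitum replicate 2 and -0.29 in 1 week replicate 2. In the other libraries it was between -0.21 and 0.30. All 8 genes below also lay below their group mean in 1 week replicate 2, as did 5 of the 12 above. Some of these values were close to the mean, with Ucp2 at -0.0091 and Ppard at -0.0022 of the former and Acadl at -0.0021 of the latter. Over the 34 genes the deviations of these libraries had a correlation of 0.66, and over 12355 genes of 0.48. The part of GC content in these values was not tested. Without both libraries, other 1 day values that moved were those of Acsl6 to -0.21, Hadhb to -0.26, Eci1 to -0.22, Acadm to -0.039, Acadl to -0.11, Slc25a20 to 0.037 and Ppara to 0.054. After 1 week those of Slc22a5, Oxct1 and Cpt2 moved to -0.22, -0.30 and 0.081.

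**Figure D5:**
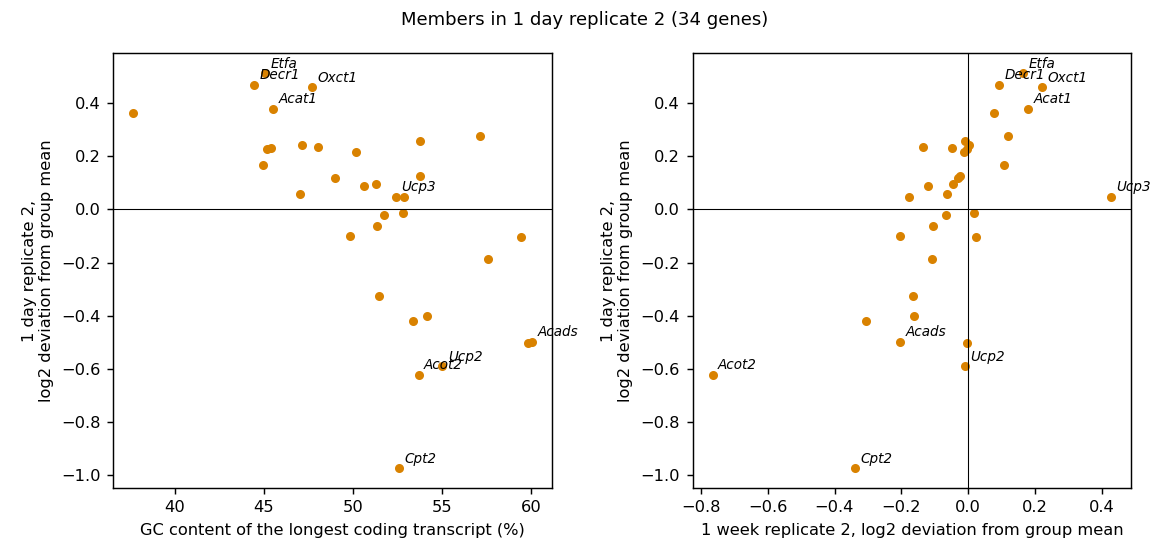
Log2 deviation of each of the 34 genes from the 1 day mean in 1 day replicate 2, against the GC content of its longest coding transcript in percent (left) and against its deviation in 1 week replicate 2 (right). Points fall from upper left to lower right in the left panel, and Cpt2 and Acot2 are low in both libraries.

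Of 90 other genes of these pathways, 82 were tested, and 2 passed after 1 week and 0 after 1 day or between 1 week and 1 day. Both belong to the 19 measured genes that control oxidation. Pdk4, a kinase that holds back pyruvate oxidation when fatty acids or ketones are used, had 9.01, 10.2 and 9.99 CPM in ad libitum libraries, 24.6, 19.5 and 17.6 after 1 day and 18.4, 28.9 and 28.5 after 1 week. Every fasted library was above every ad libitum one. It rose 2.59-fold after 1 week (log2 fold change 1.37, SE 0.19, adjusted p = 0.0229), and after 1 day the log2 value was 1.08 (adjusted p = 0.104). The 1 week call ended without any 1 of the ad libitum libraries and without 1 week replicate 2 or 3, with adjusted p up to 0.169. It also ended when both libraries that stood apart were left out (0.0708).

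Klf15, a transcription factor of fasting metabolism, had 23.0, 28.2 and 27.0 CPM in ad libitum libraries, 50.0, 40.1 and 39.8 after 1 day and 50.9, 65.2 and 57.8 after 1 week, again with no overlap. It rose 2.22-fold after 1 week (log2 fold change 1.15, SE 0.14, adjusted p = 0.00957), and after 1 day the value was 0.73 (adjusted p = 0.129). The 1 week call ended without any 1 of the ad libitum libraries, with adjusted p up to 0.0872. Angptl4, a secreted inhibitor of lipoprotein lipase, had 0.70 after 1 day and 1.08 after 1 week (SE 0.34, adjusted p = 0.266).

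In the other lists no gene passed, so directions are given as values. Of 5 monocarboxylate transport genes, 4 had an unadjusted p under 0.05 after 1 day and 2 after 1 week, all lower, where 4.9% of all genes were lower at that level in each comparison. Slc16a1, the transporter MCT1 through which ketone bodies enter brain, had 62.1, 51.8 and 66.0 CPM in ad libitum libraries, 42.8, 51.1 and 48.8 after 1 day and 50.1, 34.6 and 41.5 after 1 week. Every fasted library was below every ad libitum one, at log2 fold changes of -0.33 (SE 0.15, adjusted p = 0.537) and -0.51 (SE 0.15, adjusted p = 0.227). Slc16a3, the lactate exporter MCT4, had -0.75 (adjusted p = 0.441) and -0.34, and Slc16a6 had -0.76 (adjusted p = 0.475) and -0.37.

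Of 13 other genes of mitochondrial oxidation 2 had an unadjusted p under 0.05 in each comparison with ad libitum, both lower, where 9.27% of all genes had one after 1 day and 11.2% after 1 week. Acad11, an acyl-CoA dehydrogenase, had -0.32 after 1 day and -0.44 after 1 week (SE 0.11, adjusted p = 0.171). Mcee, the methylmalonyl-CoA epimerase of the propionate pathway, had -0.37 and -0.30. Pccb, a subunit of propionyl-CoA carboxylase, had 0.33 and 0.24. Of 10 other thioesterases 3 were lower at that level after 1 day, and 2 lower and 1 higher after 1 week, against 4.9% of all genes lower in each comparison and 6.33% higher after 1 week. Acot6 had -0.37 and -0.50, Them4 -0.45 and -0.50, and Acot7, the main brain thioesterase, -0.28 and -0.20.

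Among 11 other genes of fatty acid uptake and activation, Fabp7, a fatty acid binding protein of astrocytes, had -0.54 after 1 day and -1.17 after 1 week (SE 0.39, adjusted p = 0.305). Acsl5 had 0.30 and 0.13 and the transporter Slc27a4 had -0.22 and -0.12. Of 6 other carnitine genes Bbox1, the last enzyme of carnitine synthesis, had 0.51 (adjusted p = 0.467) and 0.44 (adjusted p = 0.374), while Slc22a4 had 0.15 and 0.22 and Slc25a29 had -0.40 and 0.10. Of 13 peroxisomal genes, Decr2 had -0.20 and -0.29, Abcd2 -0.046 and -0.26 and Acox3 0.19 and 0.19. Of 5 genes of ketone synthesis and other ketone use, Aacs, which activates acetoacetate for lipid synthesis, had -0.23 and -0.055 and Bdh2 had -0.42 and -0.38.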

How the data were processed

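RNA-seq was analysed in 9 substantia nigra libraries, 3 for each of 3 diets. Estimated counts per gene were deposited as whole numbers, not scaled to depth. The submitters' processing notes name Salmon, DESeq2 1.40.2, GRCm39 and mm39. The sources used here give neither Salmon's version nor the annotation and row filter. Counts were scaled by TMM, filterByExpr (minimum count 10, minimum total 15) removed 56 of 20591 rows, and edgeR 4.0.16 in R 4.3.3 fitted a robust quasi-likelihood model to all 9 libraries, with Benjamini-Hochberg adjustment over 20535 genes. All tests are two-sided. Standard errors came from the F statistics. Transcript length and GC content came from GRCm38 annotation by gene identifier, and promoter windows from RefSeq (GRCm38.p6) by symbol. DESeq2 1.42.0 and limma 3.58.1 were among 17 alternatives, which also included RLE size factors, other count filters, a replicate block and leaving out libraries. The edgeR step was tested on simulated data with known changes. It called 8.96% of 1.5-fold changes for 1 day against ad libitum and 10.4% for 1 week against ad libitum. For 2-fold changes it called 64.2% and 58.2%. It also called 7 and 13 genes that had not been changed. On the same data DESeq2 called 17.9% and 28.4% of 1.5-fold changes, and 38 and 50 unchanged genes.

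The 34 genes and the lists of other genes were chosen with earlier results of these data known. Values per library are given for genes with an unadjusted p under 0.05 and for a set list, and in each other list for every gene past the test and up to 3 with the smallest p against ad libitum. Of the genes this rule names, 1 is not reported here.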

Additional observations from a re-analysis of the deposited data

How the results depend on the processing

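For 1 week against ad libitum all 34 genes kept their direction, or moved by less than their SE, under the 17 alternatives. The number past the test was 1 instead of 0 after 1 day with DESeq2 (Slc22a5) and without both libraries that stood apart (Ucp2), and after 1 week with DESeq2 (Acaa1a), in a fit of the 6 libraries alone (Ucp2) and, in the range of 0 to 1 over single libraries left out, without 1 day replicate 2 (Ucp2). In the other comparison it was 0 throughout. The median log2 fold change after 1 day was -0.10 with limma voom and ranged from -0.088 to 0.022 over single libraries left out. For 1 week against 1 day it was 0.056 without both libraries and -0.042 to 0.049 over single libraries.

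Turns of direction are listed where a value moved by at least its SE, and smaller changes of sign, such as those of Ppara, Acot1 and Cpt1a after 1 day, are not. Directions turned after 1 day with limma voom for Oxct1 (-0.15), Decr1 (-0.19) and Etfa (-0.11). They turned without both libraries for Oxct1 (-0.20), Acadl (-0.11), Acadm (-0.039), Decr1 (-0.25), Etfa (-0.16), Etfb (-0.00934) and Etfdh (-0.10). For 1 week against 1 day they turned with limma voom for Acadm (0.070) and Decr1 (0.078). Without both libraries they turned for Slc16a7 (0.16), Acadl (0.11), Acadm (0.14), Hadhb (0.022), Decr1 (0.11), Eci1 (0.057), Etfdh (0.072), Ucp2 (-0.096) and Ucp3 (-0.14). With 1 library left out, values after 1 day crossed 0 by that measure for Oxct1 (-0.20 to 0.22), Acadl (-0.11 to 0.083), Acadm (-0.039 to 0.16), Decr1 (-0.25 to 0.17), Etfa (-0.16 to 0.28), Etfb (-0.0095 to 0.25) and Etfdh (-0.10 to 0.11). For 1 week against 1 day they did for Oxct1 (-0.40 to 0.020), Acat1 (-0.27 to 0.057), Slc16a7 (-0.13 to 0.19), Crat (-0.025 to 0.26), Acadl (-0.094 to 0.11), Acadm (-0.13 to 0.074), Decr1 (-0.27 to 0.15), Eci1 (-0.21 to 0.048), Etfa (-0.38 to 0.067), Etfdh (-0.14 to 0.070), Ucp2 (-0.10 to 0.27) and Ucp3 (-0.16 to 0.25). Each crossed 0 without 1 day replicate 2, except Ucp3, which did without 1 week replicate 2. The cause of these changes was not tested.

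Alternatives for the other genes of the pathways were chosen after seeing the data. After 1 day 2 of them passed with DESeq2 (Pdk4 and Klf15), 1 with limma voom (Klf15) and 0 to 1 over single libraries left out. Without both libraries 1 passed, which was neither Pdk4 (edgeR adjusted p = 0.131) nor Klf15 (0.0765). The same held without 1 day replicate 2 alone (0.142 and 0.121). After 1 week 0 to 3 passed over single libraries left out.

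With the replicate number as a block, 0 of the 34 genes passed in any comparison, and 1 instead of 2 other genes passed after 1 week, where Pdk4 missed at an adjusted p of 0.0625. The number of all genes called went from 12 to 2 after 1 day and from 63 to 32 after 1 week. The numbers were not taken to pair the libraries, since the labels do not say that they do. Of same-numbered pairs across groups, 3 of 9 had a correlation of deviations over 0.1 (range -0.26 to 0.48). Different-numbered pairs across groups ranged from -0.43 to 0.33. Depth sets a limit for Ppara, the lowest of the genes, at 95 to 232 counts per library.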

Other observations

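The ratio of Acot1 to Acot2 per kb, within each library, was 0.75, 0.76 and 0.92 in ad libitum libraries, 1.11, 1.38 and 1.11 after 1 day and 1.10, 1.73 and 1.04 after 1 week. Every fasted library lay above every ad libitum library, which gives p = 0.10 in a two-sided exact permutation test for each fasted group, the smallest that 3 against 3 allows (Benjamini-Hochberg adjusted p = 0.30 over the 6 tests of 3 ratios). The highest ratios were those of the libraries that stood apart, 1 day replicate 2 and 1 week replicate 2. This ratio was picked after its values were seen and the division of reads between these paralogs is uncertain.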
